A study of Rattus norvegicus with 23 samples.

Results

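The subject is the receptor machinery for amylin, calcitonin, calcitonin gene-related peptide (CGRP) and adrenomedullin in the rat area postrema, a sensory organ of the medulla whose vessels lack a tight blood-brain barrier. It comprises 5 genes, Calcr, Calcrl, Ramp1, Ramp2 and Ramp3. All probe sets that carry 1 of these symbols alone in the platform annotation were taken, which gave 7 of the 20832 probe sets with a single symbol and of the 31099 on the array, 2 for Calcr, 2 for Calcrl and 1 for each Ramp gene. The rule uses the annotation and no measured value.

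The series compares hypertensive, food-deprived and water-deprived rats, all male. Spontaneously hypertensive rats (SHR, 5 arrays) and Wistar Kyoto rats (WKY, 5 arrays), the normotensive strain usually set against them, were 10 to 13 weeks old and had no treatment in the labels. Sprague Dawley rats of 10 to 12 weeks were controls (4 arrays), had 48 h of food restriction (fasted, 5 arrays) or were dehydrated for 72 h (4 arrays). Each of the 23 Affymetrix Rat Genome 230 2.0 arrays held RNA pooled from 5 animals, so that the spread between arrays is a spread between pools and not between rats.

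Calcr encodes the calcitonin receptor and Calcrl the calcitonin receptor-like receptor, both G protein-coupled receptors of class B that signal mainly through cyclic AMP. The Ramp genes encode receptor activity-modifying proteins, small partners with a single membrane span that set which peptide a receptor binds. The calcitonin receptor alone binds calcitonin, and with any of the 3 partners it forms a receptor for amylin, the satiety hormone co-secreted with insulin. Calcrl with Ramp1 forms the CGRP receptor, and with Ramp2 or Ramp3 it forms receptors for adrenomedullin, a vasodilator peptide. In rats the area postrema is a known site at which circulating amylin reduces food intake.

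Signals are in the linear units of the array software and are given per array or as mean ± SD of a group's arrays. A signal depends on the probes as well as on the transcript, so levels of different probe sets were not read as differences in transcript amount. Placing a probe set above or below the array median carries the same limit. Array medians ran from 39.81 to 44.48. Of the 10 markers listed for area postrema neurons 8 were on the array, and 7 of them (Th, Dbh, Slc17a6, Cartpt, Casr, Gipr and Cck) lay above the array median on all 23 arrays, while Glp1r lay below it on 19. Markers of choroid plexus, which borders the organ, stood apart on some Sprague Dawley arrays. Their summed signal over 7 markers was 202 to 407 on the SHR and WKY arrays and 328 to 8299 on the Sprague Dawley arrays. Over all 23 arrays no relation of the mean of the 4 brighter markers to a receptor component passed a test (adjusted permutation p = 0.381 or higher for Pearson's r). Within the Sprague Dawley arrays alone, where no test was made, r with this mean ran from -0.65 for Calcrl to 0.31 for Ramp1.

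Transcripts of the calcitonin receptor and of the 3 Ramp genes gave signals above the array median on all 23 arrays, read for Calcr by its brighter probe set. That probe set ran from 95.6 to 166.0, Ramp1 from 60.4 to 211.6, Ramp2 from 145.3 to 274.6 and Ramp3 from 51.8 to 87.5. The other Calcr probe set ran from 20.7 to 50.6 and was below the array median on 21 arrays. Calcrl was below the array median on every array at both of its probe sets, with 12.5 to 32.4 at the brighter and 1.0 to 18.5 at the dimmer. Both Calcrl probe sets fell under the filter on low signals, which lay at 29.0 in the SHR and WKY arrays and at 27.4 in the Sprague Dawley arrays, so 5 of the 7 probe sets were tested. Low values at these probes show a weak array signal and do not show that the transcript was lacking.

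**Figure D1:**
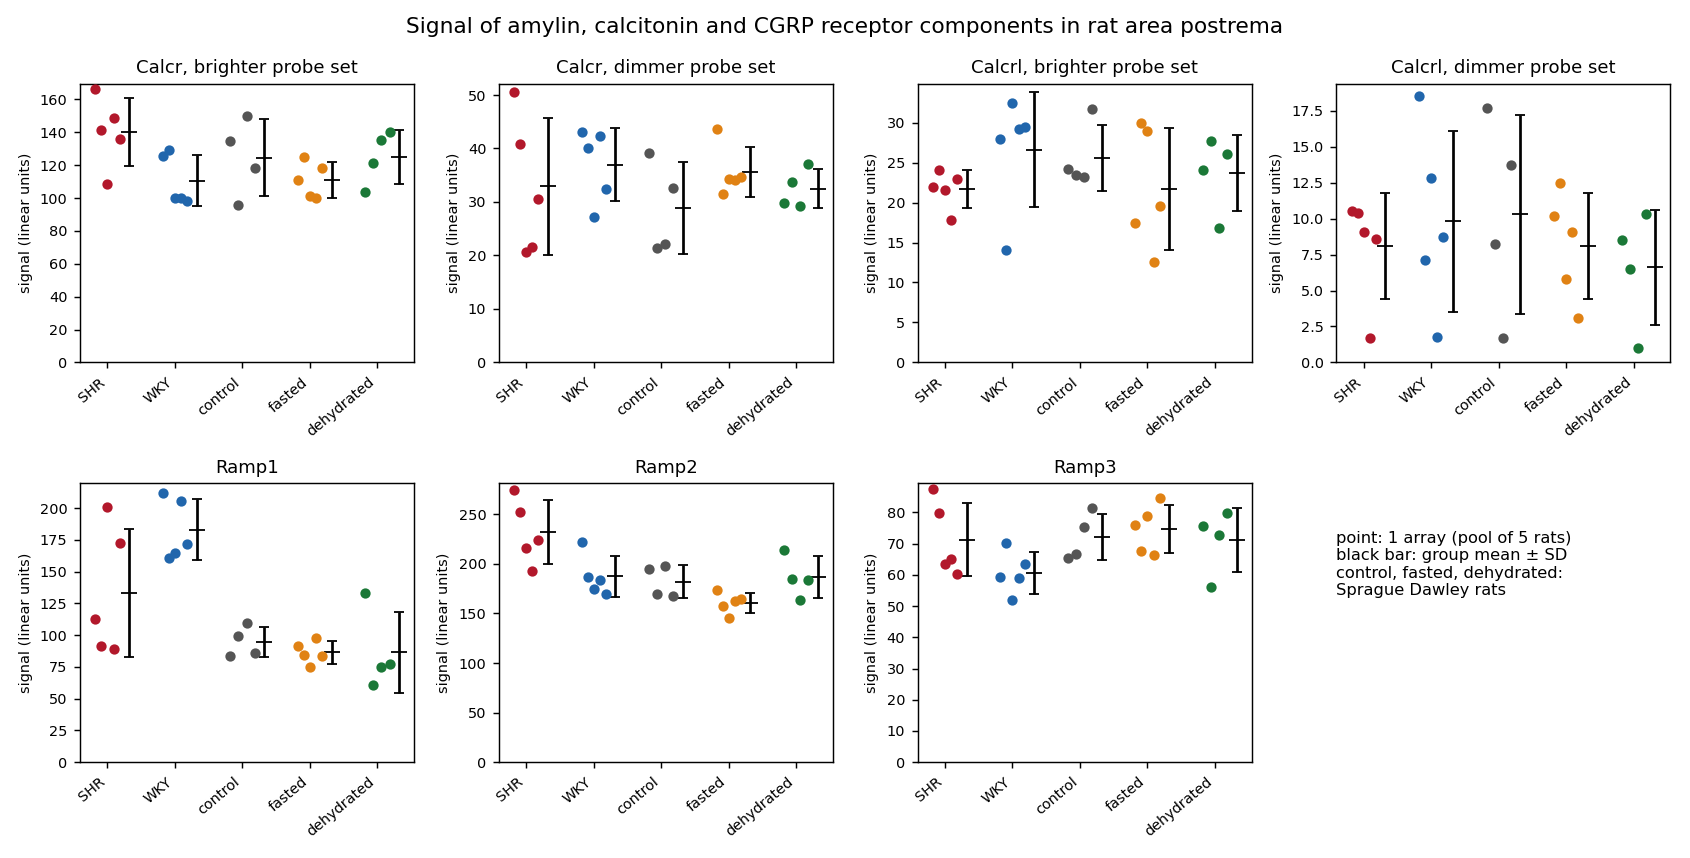
Signal (linear units, axes from 0) of the 7 probe sets in the 5 groups. Each point is 1 array, a pool of 5 rats, and black bars give the group mean ± SD. Ramp1 spans 60.4 to 211.6 and is highest in WKY, while the dimmer Calcrl probe set does not exceed 18.5.

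The strain comparison asks whether the hypertensive rat carries other levels of these components than WKY. None of the 5 tested probe sets passed an adjusted p of 0.05, against 5.06% of the 18625 probe sets tested in all, and for none did the arrays of SHR and WKY separate fully, against 6.33% of all. An unadjusted p below 0.05 was reached at 3 of the 5 (Calcr, Ramp1 and Ramp2), against 17.2% of all probe sets. Differences are given as SHR minus WKY on the log2(signal + 16) scale with limma's standard error.

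Calcr, the calcitonin receptor, had signals of 166.0, 141.2, 108.6, 148.7 and 135.9 on SHR arrays 1 to 5 at its brighter probe set. WKY arrays 1 to 5 gave lower values on the whole. They were 125.5, 129.3, 100, 99.9 and 98.2. SHR was thus higher on average, but SHR array 3 lay among the WKY values and WKY arrays 1 and 2 lay above it. The difference was 0.30 (SE 0.103, 95% interval 0.08 to 0.52, adjusted p = 0.118), which is 1.23-fold on this scale. The dimmer probe set read 50.6, 40.8, 20.7, 21.6 and 30.6 on SHR arrays 1 to 5 and 43.1, 40, 27.1, 42.3 and 32.5 on WKY arrays 1 to 5. Its group means lay the other way and the arrays overlapped widely, with 32.9 ± 12.8 in SHR and 37.0 ± 6.9 in WKY (log2 -0.15, SE 0.156, adjusted p = 0.704). The summed signal of the 8 area postrema neuron markers was 4176 to 4438 in SHR against 3489 to 3811 in WKY, a sum to which Cartpt gave the most. The mean log2 level of the same markers overlapped, with 8.24 to 8.36 in SHR and 8.17 to 8.31 in WKY, and their median difference was 0.01. Of the 8 markers 4 were higher on average in SHR and 1 passed, Cartpt, a peptide gene (2033.1 ± 156.2 against 1447.7 ± 46.9, log2 0.48, adjusted p = 2.2e-05). A further fit, chosen once the data were known, took the mean log2 level of these markers as a covariate. In it the Calcr difference was 0.05 at the brighter probe set (adjusted p = 0.903) and -0.36 at the dimmer (adjusted p = 0.483). The Ramp genes moved towards 0 in the same fit, Ramp1 to -0.34, Ramp2 to 0.19 and Ramp3 to 0.07 (adjusted p = 0.657, 0.56 and 0.881). The covariate includes Cartpt, which itself differed between the strains, so this fit cannot separate these markers from the strain. In tissue RNA, fewer cells of a type and less RNA per cell cannot be told apart.

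Ramp1, the partner that turns Calcrl into the CGRP receptor, read 113.0, 91.6, 200.5, 89.4 and 172.5 on SHR arrays 1 to 5. WKY arrays 1 to 5 read 211.6, 161.1, 164.6, 205.9 and 172.0. SHR arrays 1, 2 and 4 lay below every WKY array, whereas SHR arrays 3 and 5 lay inside the WKY range. Means were 133.4 ± 50.3 and 183.0 ± 23.9 (log2 -0.47, SE 0.192, 95% interval -0.89 to -0.05, adjusted p = 0.23). Ramp1 was the most variable of the tested components here, with a residual SD of 0.357 (log2), larger than that of 98.5% of all probe sets tested, whose median was 0.143. Without SHR array 3 the difference was -0.62 and passed (adjusted p = 0.0309). With any other array left out it ran from -0.57 to -0.36 and did not pass (adjusted p = 0.139 or higher).

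Ramp2, which with Calcrl makes an adrenomedullin receptor and is known for its role in blood vessels, had 274.6, 252.4, 215.9, 193.1 and 224.2 on SHR arrays 1 to 5. The corresponding WKY values were 222.3, 186.8, 174.6, 183.8 and 169.6. WKY array 1 lay above SHR arrays 3 and 4, and every SHR array lay above the other 4 WKY arrays. The difference of 0.28 (SE 0.091, 95% interval 0.09 to 0.47) had an adjusted p of 0.0914. It passed without SHR array 4 (log2 0.34, adjusted p = 0.036), without WKY array 1 (0.34, 0.0411) and with the log2 ratio of the 3' to 5' Gapdh probe sets, a measure of RNA integrity, as a covariate (0.37, 0.0138). With each array left out in turn it ran from 0.22 to 0.34, and with the area postrema neuron covariate it was 0.19 (adjusted p = 0.56). That ratio was 0.04 to 0.41 in SHR and 0.03 to 0.21 in WKY. The summed signal of 12 endothelial markers overlapped between the strains, 791 to 872 in SHR and 730 to 988 in WKY, and 0 of the 9 tested passed in this comparison (limma). Other marker lists did move with the strain. Fibroblast and meningeal markers were lower on average in SHR at all 7 tested, and 3 passed, Col1a2 (log2 -0.67), Igf2 (-0.53) and Fmod (-0.51), with sums of 2204 to 2937 in SHR and 3177 to 3921 in WKY. Microglia markers were likewise lower at all 7 tested, 3 of which passed (Aif1, C1qa and C1qc), with sums of 1263 to 1743 and 1780 to 2034. Of 5 motor neuron markers of the neighbouring vagal and hypoglossal nuclei 2 were tested, and both were higher on average in SHR. Prph passed (72.6 ± 10.2 in SHR, 37.4 ± 2.8 in WKY, log2 0.73, adjusted p = 0.000102 from limma). Sums of this list overlapped, with 378 to 429 in SHR and 331 to 388 in WKY. The part of these lists in the differences of Calcr and the Ramp genes was not tested.

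Ramp3, the other partner for amylin and adrenomedullin receptors, read 87.5, 79.9, 63.5, 65.1 and 60.4 on the SHR arrays. WKY arrays read 59.3, 70.1, 51.8, 58.9 and 63.5. SHR arrays 1 and 2 were above all WKY arrays and the other 3 lay within the WKY range (log2 0.18, SE 0.102, adjusted p = 0.399). Calcrl was not tested in the main model. Its brighter probe set read 22, 24.1, 21.6, 17.8 and 23 on the SHR arrays and 28.0, 14.1, 32.4, 29.2 and 29.5 on the WKY arrays. WKY array 2 was the lowest of the 10 and the other 4 WKY arrays were the highest. The means were 21.7 ± 2.4 in SHR and 26.6 ± 7.2 in WKY, and in the fit without a filter it differed by -0.16 (95% interval -0.44 to 0.12, adjusted p = 0.682). The dimmer probe set read 10.5, 10.4, 9.1, 1.7 and 8.6 in SHR and 18.5, 7.1, 12.8, 1.8 and 8.7 in WKY, with overlap throughout (log2 -0.08, adjusted p = 0.914).

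**Figure D2:**
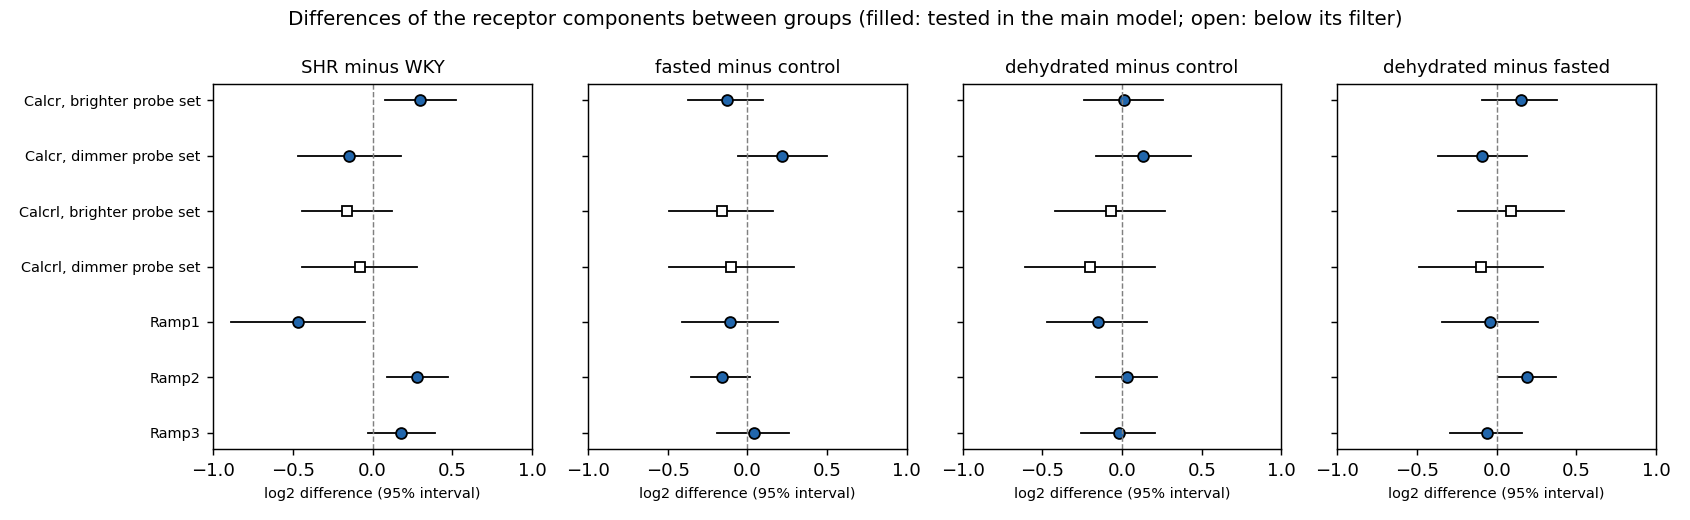
Log2 differences (x axis) of the 7 probe sets in the 4 comparisons, with 95% intervals as lines. Filled points were tested in the main model and open squares lay below its filter. The intervals of Calcr (brighter), Ramp1 and Ramp2 leave out 0 for SHR minus WKY before adjustment, and no difference passed after it.

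Whether lack of food for 48 h changes the receptors of a satiety hormone can be read from fasted against control arrays. None of the 5 tested probe sets passed, where 0.0215% of 18625 probe sets did, and none had an unadjusted p below 0.05 (7.19% of all). Groups without overlap were found at 0 of the 5, against 2.32% of all. The labelling text of control arrays 1 and 2 differs from that of the other Sprague Dawley arrays, so that the fits were repeated with control arrays 3 and 4 alone, in which again 0 of the 5 passed.

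Calcr at its brighter probe set read 134.4, 95.6, 150.1 and 118.1 on control arrays 1 to 4 and 110.8, 125.1, 101.5, 99.7 and 118.4 on fasted arrays 1 to 5. The fasted values all lay inside the control range. The difference, fasted minus control, was -0.13 (SE 0.113, 95% interval -0.37 to 0.10, adjusted p = 0.834), and the dimmer probe set, with 39.1, 21.4, 22.1 and 32.7 in controls and 43.6, 31.5, 34.3, 34.2 and 34.6 after fasting, differed by 0.22 (SE 0.135, adjusted p = 0.751). Control arrays 2 and 3 lay below all fasted arrays there, while controls 1 and 4 lay among them. Ramp3 read 65.5, 66.8, 75.4 and 81.3 in controls and 75.8, 67.6, 78.9, 66.5 and 84.6 in fasted arrays. These ranges overlapped over most of their width (log2 0.04, SE 0.108, adjusted p = 0.965). Ramp1 read 83.7, 99.6, 109.4 and 86.3 in controls and 91.3, 84.5, 74.7, 98.1 and 83.4 after fasting. Their means of 94.8 ± 12.0 and 86.4 ± 8.8 differed by less than the larger SD (log2 -0.11, adjusted p = 0.908).

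Ramp2 had 194.7, 169.3, 197.5 and 167.1 on the control arrays and 173.5, 157.9, 145.3, 162.5 and 164.1 on the fasted arrays. Of the fasted arrays 4 lay below every control and fasted array 1 lay between them. The difference was -0.16 (SE 0.087, 95% interval -0.35 to 0.02, adjusted p = 0.703). Endothelial markers summed to 817 to 1175 in controls and 734 to 962 in fasted arrays, and their part in this difference was not tested.

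Dehydration for 72 h was compared with the same 4 control arrays. Again none of the 5 passed, against 0.166% of all probe sets, none had an unadjusted p below 0.05 (11.7% of all), and none separated the groups (6.68% of all). Ramp2 read 214.4, 184.3, 163.1 and 183.3 on dehydrated arrays 1 to 4 and differed from control by 0.03 (SE 0.092, adjusted p = 0.938). Calcr read 103.6, 121.5, 135.4 and 139.9 (log2 0.01, SE 0.12, adjusted p = 0.98), and Ramp3 read 75.7, 56.2, 72.8 and 79.8 (log2 -0.02, SE 0.114, adjusted p = 0.962). The dehydrated and control arrays overlapped for each of these 3 genes. The dimmer Calcr probe set read 29.9, 33.7, 29.3 and 37.1, inside the control range (log2 0.13, SE 0.142, adjusted p = 0.765). Ramp1 read 133.0, 60.4, 75.2 and 77.2, so that array 1 was above and the other 3 arrays were below every control array. Its difference was -0.15 (SE 0.152, adjusted p = 0.73). Without dehydrated array 1 it was -0.35 (adjusted p = 0.328) and without dehydrated array 2 it was -0.03 (adjusted p = 0.976).

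For the 5 tested probe sets, the 95% intervals of the fasted and dehydrated differences from control ran from 0.72-fold at the lowest to 1.41-fold at the highest on the log2(signal + 16) scale. This scale understates ratios at low signal, which bears most on the dimmer Calcr probe set and on Calcrl. The brighter Calcrl probe set read 24.2, 23.4, 23.2 and 31.7 in controls, 17.4, 30.0, 29.0, 12.5 and 19.6 after fasting and 24.1, 27.7, 16.8 and 26.1 after dehydration. Fasted arrays 1, 4 and 5 lay below every control array and fasted arrays 2 and 3 lay inside the control range. Fitted without a filter it differed by -0.16 after fasting (adjusted p = 0.901) and by -0.07 after dehydration (adjusted p = 0.927). The dimmer probe set read 17.7, 8.2, 1.7 and 13.7 in controls, 10.2, 12.5, 5.8, 9.1 and 3.1 after fasting and 8.5, 6.5, 1.0 and 10.3 after dehydration, with wide overlap. Because both contrasts share their control arrays, their signs are not independent.

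The deprivations were also set against each other. Ramp2 was higher in dehydrated than in fasted arrays, 186.3 ± 21.1 against 160.7 ± 10.3 (log2 0.19, SE 0.087, unadjusted p = 0.0398 from limma), but did not pass after adjustment (adjusted p = 0.465). None of the 5 passed, against 0.0322% of all probe sets, and none separated the groups, against 3.23% of all. Ramp2 alone had an unadjusted p below 0.05, against 10.0% of all. The remaining differences lay between -0.09 and 0.15.

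Across the 5 groups the order of mean signals was mostly within the spread. Ramp2 ran from SHR (232.1) through WKY (187.4), dehydrated (186.3) and control (182.1) to fasted (160.7). Only the gaps between SHR and WKY and between control and fasted exceeded the larger SD of the neighbours. Ramp3 was highest in fasted (74.7), followed by control (72.2), SHR (71.3), dehydrated (71.1) and WKY (60.7), and the gap to WKY alone exceeded the SD. Calcr at the brighter probe set was ordered SHR (140.1), dehydrated (125.1), control (124.5), fasted (111.1) and WKY (110.6), with no neighbours apart by more than their SD. At the dimmer probe set WKY came first and control last, again with no gap above the SD.

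Ramp1 was ordered WKY (183.0), SHR (133.4), control (94.8), dehydrated (86.5) and fasted (86.4). No neighbours differed by more than the larger SD, but all 5 WKY arrays (161.1 to 211.6) lay above all 13 Sprague Dawley arrays (60.4 to 133.0). Groups that do not overlap in this way were found at 7.58% of 18625 probe sets. Of the SHR arrays, 1, 2 and 4 (113.0, 91.6 and 89.4) lay inside the Sprague Dawley range and 3 and 5 (200.5 and 172.5) above it. The contrast of WKY with the Sprague Dawley arrays was not among the planned comparisons. Strain and array set cannot be told apart here, since the labels give another labelling entry for the Sprague Dawley arrays than for SHR and WKY, and no test was made.

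The components were next compared within groups, as deviations of each array's log2 value from its group mean. Each of the receptors was paired with each Ramp gene, which gave 6 relations over 23 arrays, each gene read by its brighter probe set. Calcr had Pearson's r of 0.37 with Ramp3 (Spearman's rho 0.35, permutation p = 0.118 and 0.129), 0.34 with Ramp2 (rho 0.39, p = 0.174 and 0.1) and -0.42 with Ramp1 (rho -0.29, p = 0.083 and 0.224). None passed after adjustment over the 6 (adjusted permutation p = 0.348 for each r). Within the SHR and WKY arrays alone r for Calcr and Ramp3 was 0.60, and within the Sprague Dawley arrays 0.16. Without the 2 arrays farthest from the median of Calcr, SHR 3 and control 2, it was 0.29. The relations of Calcrl with the Ramp genes lay between -0.12 and -0.03 (adjusted permutation p = 0.876), for a probe set under the filter on low signals. The probe sets of Calcr had r = 0.44 with each other (rho 0.40, permutation p = 0.0888 and 0.113) and those of Calcrl r = 0.32 (rho 0.39, permutation p = 0.169 and 0.0927).

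Each component was then set against the mean of 10 lists of cell type markers in the same way, 50 relations in all, an addition made after the data were seen. Ramp1 with the astrocyte list (6 markers, among them Gfap, Aqp4 and Slc1a3) was the only relation to pass by Pearson's r, at 0.74 (Spearman's rho 0.79, permutation p = 6e-05 and 0.00011, adjusted p = 0.003 and 0.0055). It held within the SHR and WKY arrays (r = 0.76) and within the Sprague Dawley arrays (r = 0.75). Without the 2 arrays farthest from the median of the astrocyte mean r was 0.80, with arrays extreme in Ramp1 (SHR 3, dehydrated 1) kept. Ramp1 had r = 0.84 with oligodendrocyte, 0.72 with motor neuron and 0.66 with neuron markers within the Sprague Dawley arrays. Within SHR and WKY these were 0.29, 0.45 and 0.26. Over 23 arrays they were 0.56, 0.50 and 0.46 (adjusted permutation p = 0.381, 0.124 and 0.381). The astrocyte means of SHR arrays 3 and 5, the high Ramp1 arrays of that group, were 10.51 and 10.52 (log2), and those of SHR arrays 1, 2 and 4 were 10.35, 10.21 and 10.11. The WKY arrays were not ordered alike. WKY array 3 had the highest astrocyte mean of its group, 10.58, with Ramp1 at 164.6, and WKY array 1 had 10.49 with Ramp1 at 211.6. With the astrocyte mean as a covariate the SHR minus WKY difference of Ramp1 was -0.30 (adjusted p = 0.246). Its unadjusted p from limma was 0.0341, against 0.0314 in the main model. The part of astrocytes in the strain difference was not tested.

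Calcr was related to the area postrema neuron list, with r = 0.65 and rho = 0.71 over 23 arrays. The rank measure passed (permutation p = 0.0005, adjusted p = 0.0125) and Pearson's r did not (permutation p = 0.00257, adjusted p = 0.0642). Values of r were 0.85 within the SHR and WKY arrays and 0.60 within the Sprague Dawley arrays. Without the 2 arrays farthest from the median of the marker mean r was 0.65. Ramp3 had r = 0.31 with this list (permutation p = 0.181). Ramp3 and Ramp2 had r = 0.58 and 0.54 with microglia markers, and neither relation passed (adjusted permutation p = 0.22 and 0.223). With 4 markers of motor neurons in the neighbouring nuclei, Ramp1 had r = 0.50 and Ramp2 r = 0.48 (adjusted permutation p = 0.124 for each). Spearman's rho was 0.41 for Ramp1 and 0.59 for Ramp2 (adjusted permutation p = 0.428 and 0.081), so that these did not pass either. Relations of Calcrl and Ramp2 to the endothelial list were weak, with r = 0.10 and 0.18 (adjusted permutation p = 0.86 and 0.766).

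**Figure D3:**
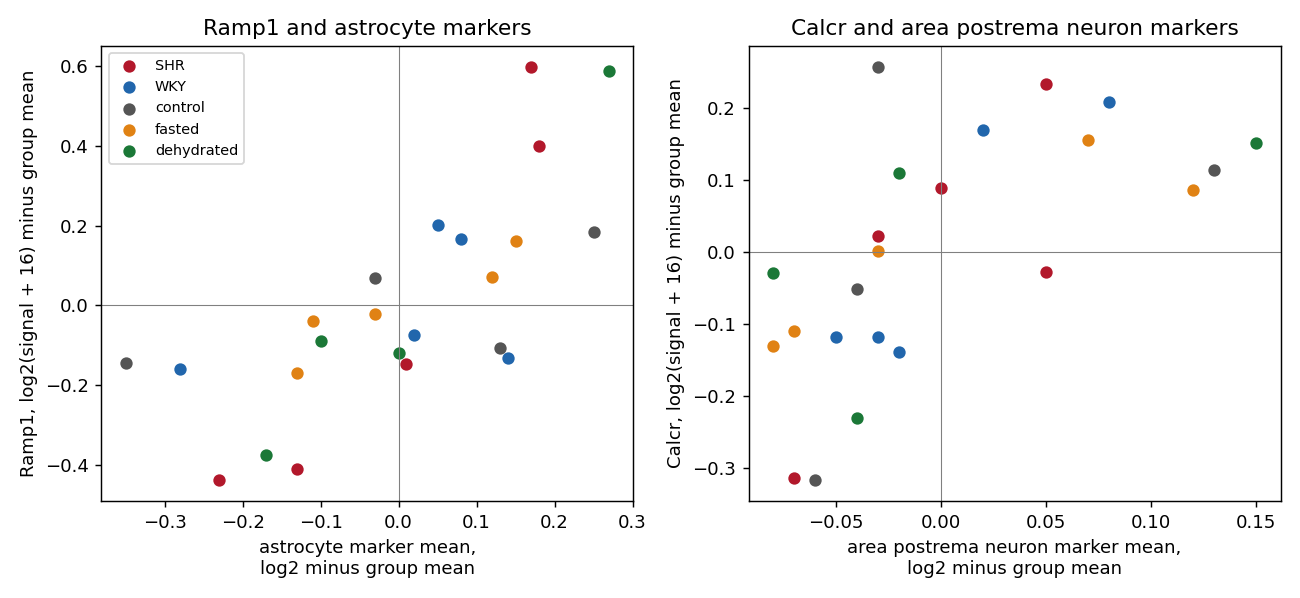
Deviation of Ramp1 from its group mean against that of the astrocyte marker mean (left), and of Calcr against that of the area postrema neuron marker mean (right), both axes in log2 units. Each point is 1 of 23 arrays, coloured by group. Pearson's r is 0.74 on the left and 0.65 on the right.

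**Figure D4:**
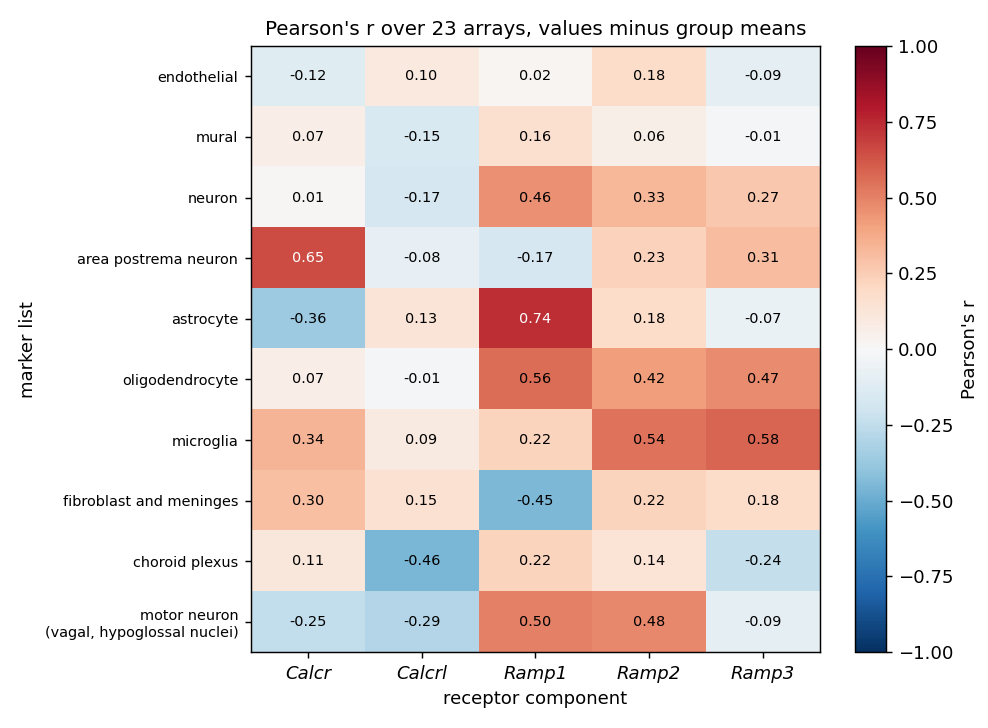
Pearson's r of each receptor component with the mean of each marker list over 23 arrays, group means removed. Colours run from -1 (blue) to 1 (red). The highest value is 0.74 for Ramp1 with astrocyte markers, followed by 0.65 for Calcr with area postrema neuron markers.

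Genes with the most similar pattern were sought by Pearson's r over the 23 arrays, group means removed, among 10414 genes. They are the highest of many values and carry no test. Ramp1 had the closest neighbours: Npff, the precursor of neuropeptide FF (r = 0.89), Gc, the vitamin D-binding protein (0.88), the fibroblast growth factor receptor Fgfr3 (0.87), the neurotensin receptor Ntsr2 (0.85) and the transcription factor Irx1 (0.85). Within each of the array sets these 5 had r between 0.82 and 0.92. High values were also more common for Ramp1 than for the other components, with a 99.9th percentile over all genes of 0.82 against 0.65 to 0.73. For Ramp3 they were Ddit4, a stress-induced inhibitor of growth signalling (0.81), the complement gene C1qa (0.78), Gadd45a, a stress-response gene (0.77), the Golgi protein gene Gorasp2 (0.77) and the interferon regulatory factor Irf2 (0.77). For Ramp2 the ubiquitin ligase gene Ubr4 (0.84) led, followed by Pllp (0.78), Ergic1 (0.76), Tmem184b (0.75) and Utrn, the gene of utrophin (0.75). Some of these were much less alike in the Sprague Dawley arrays, where r was 0.46 for Tmem184b and 0.49 for Utrn against 0.92 and 0.90 in SHR and WKY.

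The likest genes for Calcr were Ptgfrn (0.80), Alg5 and Ddost of protein N-glycosylation (0.74 and 0.70), the cytokine gene Ctf1 (0.71) and Clec2d2l2 (0.70). For Calcrl they were Slc25a42 (0.79), Plch1 (0.77), Bfsp1 (0.70), Ado (0.69) and Tmie (0.68), again for a weak signal, and Ado had r = 0.46 in the SHR and WKY arrays. The 5 components were left out of this search, and r between any pair of them lay between -0.42 and 0.37.

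Of 5 listed ligand genes 4 had a probe set with a single symbol. Iapp, which encodes amylin and is known chiefly from pancreatic beta cells, gave group means of 1.5 to 2.0, and Adm, which encodes adrenomedullin, 3.9 to 14.5. Both lay under the filter in every comparison. Calca, which encodes calcitonin and a form of CGRP, was measured at 66.3 ± 6.6 in SHR and 74.8 ± 20.0 in WKY (log2 -0.12, adjusted p = 0.703). In controls Calca was 79.6 ± 12.6, after fasting 73.5 ± 15.4 and after dehydration 61.2 ± 18.4 (log2 -0.33 against control, SE 0.16, adjusted p = 0.433). Calcb, the gene of the other CGRP, was tested in the Sprague Dawley arrays only and differed by 0.09 after fasting (adjusted p = 0.949) and by 0.07 after dehydration (adjusted p = 0.909).

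Other proteins known to bind receptor activity-modifying proteins or to couple these receptors did not pass in any of the 4 comparisons (limma). Casr, the calcium-sensing receptor, differed by 0.19 between the strains (208.1 ± 31.1 in SHR, 179.8 ± 19.1 in WKY, adjusted p = 0.319). Crcp, the CGRP receptor component protein, differed by 0.09 (adjusted p = 0.584) and Gper1 by 0.11 (adjusted p = 0.735). Of 13 listed class B receptors 11 were on the array and 6 were tested, and 0 passed in each comparison. Adcyap1r1, the receptor of the peptide PACAP, is given as an example chosen after its values were seen, with 1000.8 ± 49.4 in SHR and 891.5 ± 118.0 in WKY (log2 0.17, unadjusted p = 0.0374, adjusted p = 0.251). Adcyap1r1 differed by 0.16 after fasting (adjusted p = 0.697) and by 0.18 after dehydration (adjusted p = 0.419). Of 30 listed genes of cyclic AMP signalling, which carry the receptors' message, 21 were tested and 0 passed in any comparison, with medians between -0.01 and 0.10 where the median of all probe sets lay between -0.01 and 0.01.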

How the data were processed

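RNA from 23 pools of area postrema was hybridised to Affymetrix Rat Genome 230 2.0 arrays. Linear array intensity was deposited, and the submitters' processing notes name GCOS 1.2, without settings. The mean after trimming 2% at each end was the same on every array to 1 decimal, so values were used without further normalization. Groups came from sample titles, and gene symbols from the platform annotation, updated through gene identifiers of the rat assembly GRCr8, which gave 20832 probe sets with a single symbol.

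Signals were transformed as log2(signal + 16). The 57 control probe sets and probe sets below the 40th percentile of the mean were left out, and 18625 were tested with limma 3.58.1 in R 4.3.3 (lmFit, eBayes with trend and robust, two-sided), adjusted by Benjamini-Hochberg over all of them at 0.05. SHR and WKY were fitted on 10 arrays, the Sprague Dawley groups in 1 model of 13. Pathway and marker genes were read by their probe set with the highest mean. Correlations used 100000 permutations within groups (numpy 2.4.6, Python 3.11.15). On simulated data the size of fitted differences was checked against the shifts put in, but no threshold was in force for the share of shifts recovered. Precision is limited by the number of arrays, and p-values measure only the spread between pools.

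Probe sets of the 5 genes are all named. For likeness, the 5 genes with the highest r per component are named. From the lists, genes past the threshold were to be named, and since none of the pathway genes passed, others were chosen after their values were seen. The members and lists were chosen with earlier results of these data known. Same-numbered SHR and WKY arrays had correlated deviations of -0.01 to 0.27. For numbers 1 and 2 these (0.16 and 0.27) exceeded the highest value with another number (0.08 and 0.12), and for numbers 3 to 5 they did not. The evidence was thus mixed, and the numbers were not taken to pair the arrays. Alternatives were another scaling, pseudocounts of 1 and 64, other filters, eBayes settings, array weights, covariates, a replicate block, gene means, other array sets and each array left out in turn.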

Additional observations from a re-analysis of the deposited data

Results flagged for a closer look

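In 35 combinations of a probe set and a group, 4 had an array far from the others of its group by Dixon's test, which marks about 1 in 20 by chance. For the dimmer Calcr probe set the highest fasted array, number 1, read 43.6, where the others reached at most 34.6. For the brighter Calcrl probe set the lowest WKY array read 14.1 and the highest control array 31.7. For the dimmer Calcrl probe set the lowest SHR array read 1.7. The Calcrl probe sets lay under the filter on low signals, while the dimmer Calcr probe set passed it and was tested.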

How the results depend on the processing

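The number of the 5 tested probe sets past the threshold was 0 in each comparison and stayed 0 for the fasting and dehydration comparisons under every alternative run. For SHR against WKY it was 1 with the Gapdh ratio as covariate (Ramp2) and 0 to 2 with 1 array left out (Calcr and Ramp1 without SHR 3, Ramp2 without SHR 4 or WKY 1). It was 2 with the replicate block (Calcr, adjusted p = 0.0488, and Ramp2, adjusted p = 0.0272), although the numbers were not shown to pair the arrays. The share of all probe sets called under these alternatives is not given here, so the counts cannot be set against it. No other comparison gained a call under the block. The correlations of receptors and Ramp genes kept their sign and their side of the threshold under other pseudocounts and quantile normalization.

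Differences that turned sign were all small and none passed either way. With the Gapdh ratio the dimmer Calcr probe set was 0.02 for SHR minus WKY and 0.03 for dehydrated minus fasted, and Ramp3 was -0.04 (fasted), 0.02 (dehydrated) and 0.06 (dehydrated minus fasted). Mean probe sets per gene gave Calcr 0.08, 0.04 and 0.03 for strain, fasting and dehydrated minus fasted, which averages probe sets of opposite sign. With control arrays 3 and 4 alone Ramp3 was -0.06 after fasting and Calcr -0.09 after dehydration. The astrocyte covariate, added after the data were seen, gave Ramp1 0.02 after fasting. With 1 array left out, the dehydrated minus control differences ran from -0.09 to 0.10 (Calcr), -0.04 to 0.08 (Ramp2) and -0.07 to 0.06 (Ramp3), and dehydrated minus fasted from -0.24 to 0.08 (Ramp1) and -0.11 to 0.03 (Ramp3). The cause was not tested. For signals as low as those of Calcrl, background limits what could be seen.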
